A study of Mus musculus with 8 samples.

Results

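The ATF4-CHOP stress signalling core was followed here as 10 genes: the kinase gene Eif2ak3, the transcription factor genes Atf4 and Ddit3, and the 7 genes Ppp1r15a, Trib3, Chac1, Asns, Sesn2, Ddit4 and Nupr1 that act downstream of them. The genes were chosen by name with earlier results of these data known, as were the gene lists below. Their counts of calls beside all tested genes are therefore descriptions. By Ensembl identifier the genes were matched to 10 of the 55487 genes in the RNA sequencing tables of 8 hand-picked islet samples. All 10 had enough counts to be tested. There were 3 Ide-/- and 5 Ide+/+ samples, all of the strain C57BL/6J. Ide-/- samples lack the insulin-degrading enzyme IDE, a zinc protease of insulin and several small peptides, and Ide+/+ samples carry the intact gene. All samples of both genotypes had eaten a diet with 60 kcal% fat for 2 weeks from 10 weeks of age, and the labels call every mouse female. The labels do not say how the Ide allele was made or how many animals gave 1 sample, so the p-values measure only the spread between these samples. The comparison addressed which transcripts differed between the Ide-/- and Ide+/+ samples under this diet.

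The core belongs to the integrated stress response. PERK, the kinase encoded by Eif2ak3, sits in the membrane of the endoplasmic reticulum (ER), senses unfolded protein and phosphorylates the translation factor eIF2. General translation then falls, while the Atf4 mRNA is translated more, so the transcript of Atf4 is not a measure of ATF4 protein. ATF4 switches on genes of amino acid supply and, with prolonged stress, Ddit3, which encodes CHOP, a factor tied to cell death. In the pancreas both insulin-making beta cells and enzyme-making acinar cells secrete large amounts of protein and depend on PERK, as mice without it show.

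ATF4 forms dimers with C/EBP proteins that bind a composite C/EBP-ATF element, written TGATGNAA, where N is any base. The element was searched on both strands of the 300 bases around each gene's RefSeq start (250 before and 50 after, GRCm38.p6). All 10 members had a promoter in the table, and 4 of them, Trib3, Chac1, Asns and Nupr1, held the element, against 3.97% of 32851 promoters. The 4 windows are shown because they are the members' only matches and their genes are known targets of ATF4. Each is 30 bases on the gene's own strand, 5′ to 3′, with the element in capitals. It reads on the gene's strand in Asns and on the other strand in Trib3, Chac1 and Nupr1, where the capitals show its reverse complement.
Trib3: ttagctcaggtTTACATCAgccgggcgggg
Chac1: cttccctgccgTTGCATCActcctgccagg
Asns: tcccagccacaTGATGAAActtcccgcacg
Nupr1: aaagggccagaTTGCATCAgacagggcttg
The RefSeq start differs, in all 4 genes, from the outermost start in the gene spans printed with the members below, which come from GENCODE. The Asns window (chr6:7693214-7693243) held the element 23 bases upstream of the RefSeq start and 22 bases past the GENCODE start. The Trib3 window (chr2:152344028-152344057) held it 14 bases past the RefSeq start and 14 bases before the GENCODE start. In the Chac1 window (chr2:119351038-119351067) it lay 193 bases upstream of the RefSeq start and 180 upstream of the GENCODE start. In the Nupr1 window (chr7:126625562-126625591) it lay 110 bases upstream of the RefSeq start, which itself is 5391 bases inside the GENCODE span. The ER stress element of the ATF6 and XBP1 factors (CCAAT and CCACG with 9 bases between them, both strands) was in none of the 10 promoters and in 0.119% of all. A match of letters is a description and does not show binding.

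The Ide-/- libraries held 7143424 to 17445976 counts and the Ide+/+ libraries 19277303 to 33371662. Ide itself had 6, 7 and 4 counts in the Ide-/- libraries, against 256 to 765 in the Ide+/+ libraries, as the genotype labels state. The labelled sex was not borne out in 7 libraries: the Y-linked gene Ddx3y had 778 to 2139 counts in the Ide-/- libraries and 503 to 1581 in Ide+/+ replicates 2 to 5, and 0 in Ide+/+ replicate 1, where Xist had 692 counts. Ide+/+ replicates 2 and 3 were far closer to each other than any other pair (chi-square per degree of freedom 5.64, against 55.6 for the next pair) but differed by more than sampling noise, and were kept as 2 samples. Transcripts of acinar cells, which surround islets, took 0.699%, 1.45% and 1.50% of counts in Ide-/- libraries and 41.2%, 23.6%, 23.9%, 37.6% and 37.0% in Ide+/+ replicates 1 to 5 (35 markers, two-sided exact permutation p = 0.0179, the smallest that 56 splits allow). All 35 markers were lower in Ide-/- islets, with a median log2 fold change of −6.34, and Cela3a was at 0 in every Ide-/- library. The beta cell markers took 13.5% to 22.0% of counts in Ide-/- libraries and 1.72% to 7.82% in Ide+/+ libraries, and none of the 12 was called by edgeR, DESeq2 or limma-voom (1 had an unadjusted p under 0.05). In such bulk samples fewer cells of a type and less RNA per cell cannot be told apart.

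Of the 10 core genes, 5 were lower in Ide-/- islets and none was higher. The 5 were Nupr1, Asns, Chac1, Sesn2 and Ppp1r15a, all of them genes downstream of ATF4. The kinase gene Eif2ak3 and the factor genes Atf4 and Ddit3 did not pass the test, nor did Trib3 and Ddit4. A gene was called when the edgeR quasi-likelihood test gave an adjusted p under 0.05 over all 16266 tested genes, of which 10.6% were called lower and 10.4% higher. The median log2 fold change (Ide-/- over Ide+/+) of the 10 genes was −0.98, beside −0.01 over all tested genes. None was higher at an unadjusted p under 0.05, which 5877 of all 16266 tested genes reached in either direction. DESeq2 and limma-voom each also gave 5 lower and 0 higher. The 5 called genes were also those whose libraries did not overlap between genotypes, a pattern toward lower values that 15.6% of all tested genes had. Without Ide+/+ replicate 1, the library with female counts, 6 were lower, Ddit4 being added. Without Ide-/- replicate 3, the shallowest library, 2 were lower, Asns and Nupr1, and without Ide-/- replicate 2 there were 3, with Chac1. The calls over all genes moved the same way. From 1727 lower genes they went to 2139 without Ide+/+ replicate 1, 853 without Ide-/- replicate 3 and 809 without Ide-/- replicate 2. Levels below are in CPM, a gene's count scaled to one common library total after TMM scaling, which sets most genes to be level between libraries.

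**Figure D1:**
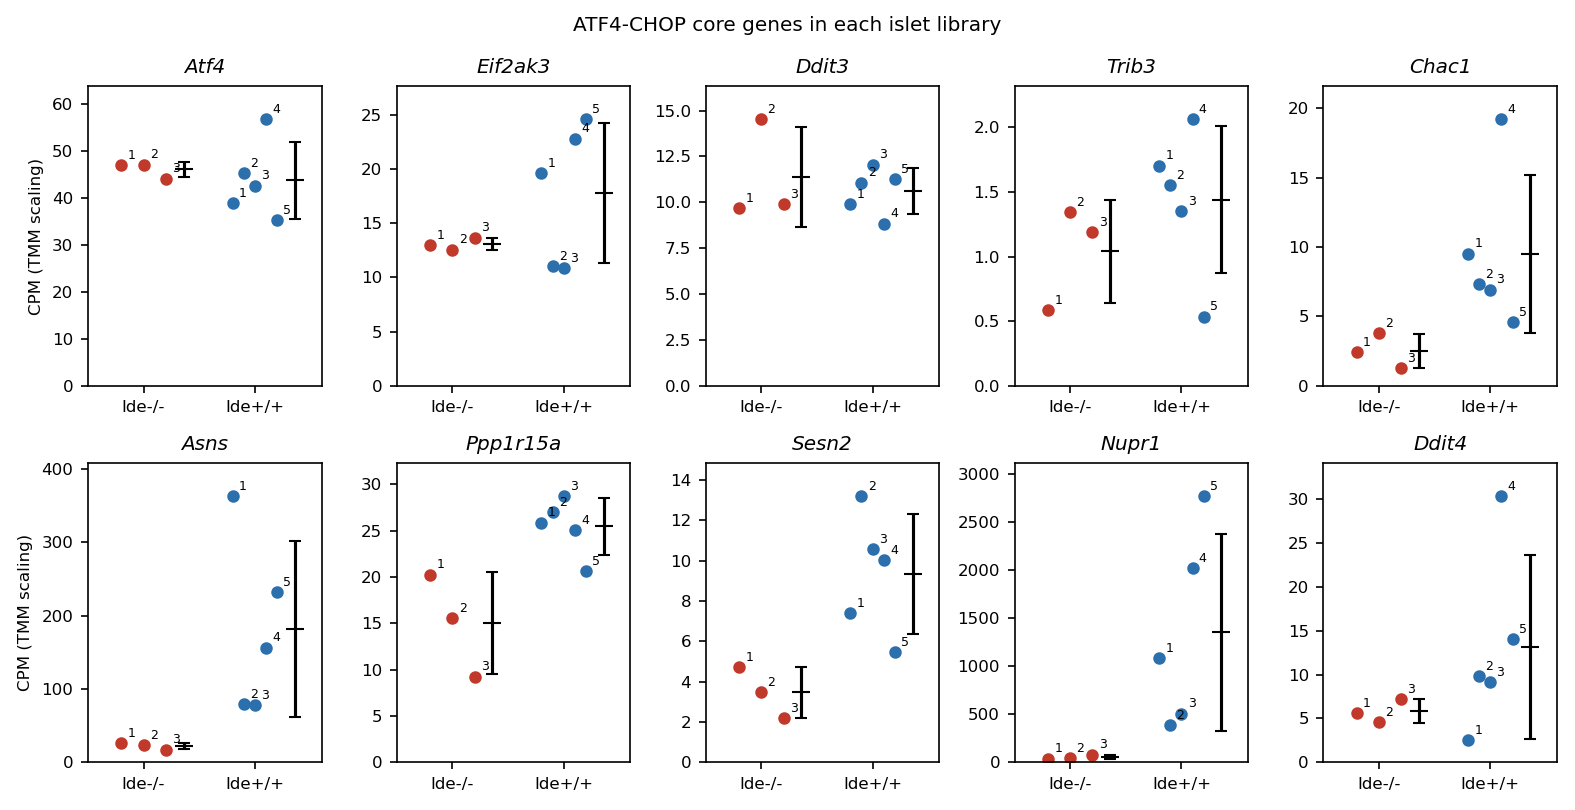
CPM (TMM scaling, axes from 0) of the 10 core genes in each library, Ide-/- in red and Ide+/+ in blue, with replicate numbers; the dash and bar are the group mean and SD. Nupr1, Asns, Chac1, Sesn2 and Ppp1r15a have every Ide-/- library below every Ide+/+ library, while Atf4 and Ddit3 overlap around means of 46.0 and 43.7 CPM and of 11.4 and 10.6 CPM.

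Eif2ak3 (ENSMUSG00000031668; GRCm38 chr6:70844515-70905245, plus strand) had 13.0, 12.6 and 13.7 CPM in the Ide-/- libraries. In Ide+/+ replicates 1 to 5 it had 19.6, 11.0, 10.9, 22.8 and 24.6 CPM. The Ide-/- libraries were alike, and they lay between 2 low and 3 high Ide+/+ libraries. Its log2 fold change came to −0.43 (SE 0.29; adjusted p = 0.297). Eif2ak3 spans the unnamed gene models Gm43292 on the other strand and Gm23346. The strand setting of the counting is not given in the sources used here, and Gm43292 had 23 to 76 counts in Ide-/- libraries and 6 to 55 in Ide+/+ libraries, beside 149 to 466 and 196 to 433 for Eif2ak3.

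Atf4 (ENSMUSG00000042406; chr15:80255184-80257541, plus strand) was at almost the same level in both genotypes in CPM with TMM scaling. It had 46.9, 47.1 and 44.1 CPM in the Ide-/- libraries, against 38.9, 45.3, 42.6, 56.7 and 35.2 CPM in Ide+/+ replicates 1 to 5. The 3 Ide-/- libraries lay inside the Ide+/+ range and spread less, with means of 46.0 ± 1.69 and 43.7 ± 8.20 CPM (SD, n = 3 and 5). Its log2 fold change came to 0.07 (SE 0.20; adjusted p = 0.821), and a p that misses the threshold does not show equality.

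Ddit3 (ENSMUSG00000025408; chr10:127290774-127296288, plus strand), the gene of CHOP, had 9.69, 14.5 and 9.90 CPM in the Ide-/- libraries. In Ide+/+ replicates 1 to 5 it had 9.92, 11.1, 12.0, 8.83 and 11.3 CPM. Only Ide-/- replicate 2 lay outside the Ide+/+ range, above it. The fitted log2 difference for Ddit3 was 0.10 (SE 0.20, with an adjusted p = 0.754), and without Ide-/- replicate 2 it was −0.12. Ddit3 shares 68 bases with Mars on the other strand and 15 with Gm4189. A second identifier with this symbol, ENSMUSG00000116429, had 1 count over all libraries.

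Ppp1r15a (ENSMUSG00000040435; chr7:45522916-45526268, minus strand) encodes GADD34, which brings a phosphatase to eIF2 and so ends the response. It had 20.2, 15.5 and 9.26 CPM in the Ide-/- libraries, against 25.9, 27.0, 28.8, 25.1 and 20.6 CPM in Ide+/+ replicates 1 to 5. The groups did not overlap, but Ide-/- replicate 1 (20.2 CPM) and Ide+/+ replicate 5 (20.6 CPM) almost touched. Ppp1r15a was lower in Ide-/- islets, at −0.75 on the log2 scale (SE 0.24, adjusted p = 0.045), the weakest of the 5 calls. The call was lost without any 1 of Ide-/- replicates 2 and 3 or Ide+/+ replicates 2, 3 and 4 (adjusted p up to 0.159). Scaling by secretory granule genes gave −0.71 (adjusted p = 0.088).

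Trib3 (ENSMUSG00000032715; chr2:152337422-152344032, minus strand) encodes a pseudokinase that is induced by ATF4 and CHOP and holds them back. It was the scarcest member, with 21, 33 and 13 counts in the Ide-/- libraries and 17, 61, 38, 35 and 5 in Ide+/+ replicates 1 to 5. These came to 0.585, 1.34 and 1.19 CPM in Ide-/- libraries, against 1.70, 1.55, 1.35, 2.06 and 0.536 CPM. The groups overlapped because Ide+/+ replicate 5, at 5 counts, was the lowest library of all. The fitted log2 difference for Trib3 was −0.53 (SE 0.43, with an adjusted p = 0.394).

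Chac1 (ENSMUSG00000027313; chr2:119351229-119354381, plus strand) encodes an enzyme that breaks down glutathione. It had 2.45, 3.78 and 1.28 CPM in the Ide-/- libraries, against 9.52, 7.36, 6.93, 19.2 and 4.61 CPM in Ide+/+ replicates 1 to 5. Every Ide-/- library was below every Ide+/+ library, and Ide+/+ replicate 4 was far above the rest. Chac1 was 3.68-fold lower in Ide-/- islets (log2 fold change −1.88, SE 0.46, adjusted p = 0.015). Ide-/- replicate 3 held 14 counts of it, and without that library or without Ide-/- replicate 1 the adjusted p rose to as much as 0.069.

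Asns (ENSMUSG00000029752; chr6:7675169-7693254, minus strand) encodes asparagine synthetase, the textbook target of ATF4 in amino acid shortage. It had 26.5, 23.5 and 17.5 CPM in the Ide-/- libraries, against 363, 79.6, 77.8, 156 and 232 CPM in Ide+/+ replicates 1 to 5. The highest Ide-/- library was well below the lowest Ide+/+ library, and the Ide+/+ libraries differed among themselves by 4.67-fold. Asns was 8.05-fold lower in Ide-/- islets (log2 fold change −3.01, SE 0.53, adjusted p = 0.003), and every fit that left out 1 library kept the call (−3.20 to −2.59).

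Nupr1 (ENSMUSG00000030717; chr7:126623249-126630861, minus strand) encodes a small nuclear stress protein, first described as strongly induced in acinar cells in pancreatitis. It had 38.3, 44.1 and 81.2 CPM in the Ide-/- libraries. In Ide+/+ replicates 1 to 5 it had 1086, 388, 507, 2026 and 2778 CPM. Nupr1 showed both the largest fall of the core, 24.9-fold (log2 fold change −4.64, SE 0.76, adjusted p = 0.002), and, after Ddit4, the widest range within Ide+/+, 7.15-fold from the lowest library to the highest. The call held in all 8 fits that left out 1 library (−5.04 to −4.20).

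Sesn2 and Ddit4 encode brakes on the growth kinase complex mTORC1: sestrin 2 binds leucine and the GATOR2 complex, and REDD1, the product of Ddit4, acts through the TSC complex. Sesn2 (ENSMUSG00000028893; chr4:132492032-132510501, minus strand) had 4.73, 3.50 and 2.20 CPM in the Ide-/- libraries, against 7.42, 13.2, 10.6, 10.0 and 5.47 CPM in Ide+/+ replicates 1 to 5. The groups did not overlap, and Sesn2 was 2.65-fold lower in Ide-/- islets (log2 fold change −1.40, SE 0.32, adjusted p = 0.011). Without Ide-/- replicate 2 or 3 its adjusted p passed 0.05, with 0.053 the highest.

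Ddit4 (ENSMUSG00000020108; chr10:59949669-59951834, minus strand) had 5.62, 4.56 and 7.24 CPM in the Ide-/- libraries, against 2.51, 9.80, 9.14, 30.3 and 14.1 CPM in Ide+/+ replicates 1 to 5. The groups overlapped through Ide+/+ replicate 1 alone, which was the lowest library of all. The fitted log2 difference for Ddit4 was −1.20 (SE 0.56, with an adjusted p = 0.142). Without Ide+/+ replicate 1 it was −1.46 and passed the test (adjusted p = 0.023).

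**Figure D2:**
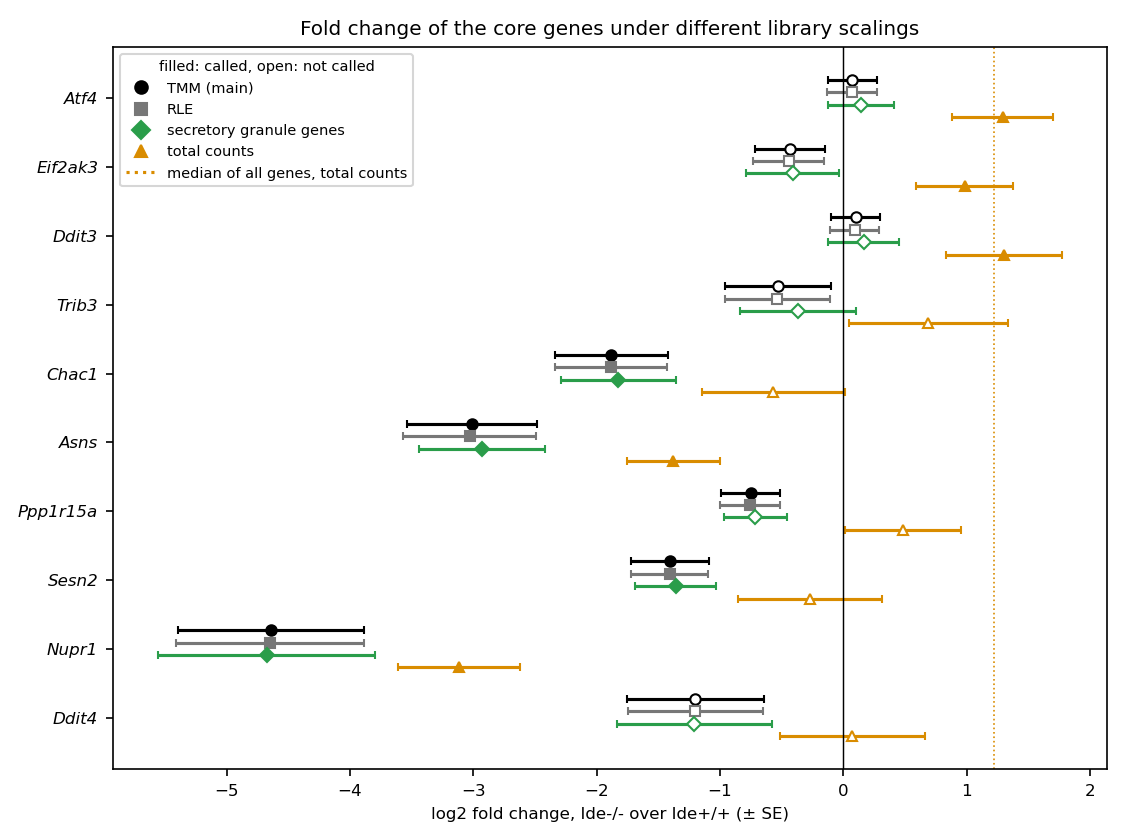
Log2 fold change (Ide-/- over Ide+/+) with its SE for each core gene under 4 ways of scaling the libraries, filled where called at an adjusted p under 0.05. Scaling by TMM, RLE or secretory granule genes gives near equal values, whereas plain total counts move all genes up, by a median of 1.22 (dotted line), and Asns and Nupr1 stay lower under every scaling.

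The position of zero in these fold changes is set by the scaling, and the acinar markers alone took 23.6% to 41.2% of the counts in the Ide+/+ libraries. With plain total counts the median of all tested genes moved to 1.22, and 96.8% of the called genes were higher, beside 49.6% with TMM. Relative to that median, 7 members came within 0.10 of their value relative to the median with TMM: Atf4 at 0.07, Ddit3 at 0.08, Trib3 at −0.54, Ppp1r15a at −0.74, Ddit4 at −1.15, Sesn2 at −1.49 and Chac1 at −1.79. The other members moved more: Eif2ak3 stood at −0.24, beside −0.43 with TMM, Nupr1 at −4.34, beside −4.63, and Asns at −2.60, beside a log2 fold change of −3.01 with TMM, where the median of all genes is −0.01. As plain totals, Atf4 (1.29, adjusted p = 0.016), Ddit3 (0.08 above the median, adjusted p = 0.027) and Eif2ak3 (0.98, adjusted p = 0.041) were called higher by edgeR. Only Asns (−1.38) and Nupr1 (−3.12) were then lower. The ratio of 2 genes within a library needs no such scaling.

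Levels per transcript length were taken from the deposited TPM values, which sum to the same total in each library. Nupr1 was the most abundant member in all 8 libraries and Trib3 the scarcest. Nupr1 averaged 98.4 ± 26.4 TPM in Ide-/- libraries and 1190 ± 687 TPM in Ide+/+ libraries. Asns ranked 3rd, 4th and 5th among the members in the Ide-/- libraries but 2nd in all 5 Ide+/+ libraries, and Atf4 ranked 2nd in the Ide-/- libraries and 3rd in the Ide+/+ libraries. Atf4 averaged 36.6 ± 7.05 TPM in Ide-/- libraries and 20.1 ± 9.20 TPM in Ide+/+ libraries. With limma it was called higher on log2(TPM + 1) (0.94, adjusted p = 0.048, median of all genes 0.50). On log2(TPM + 0.1) it was not called (0.98, adjusted p = 0.062, median 0.83). Ddit3 ranked 4th, 3rd and 3rd in the Ide-/- libraries and averaged 19.4 ± 6.32 TPM there, against 10.7 ± 5.05 TPM in Ide+/+ libraries. Ppp1r15a averaged 14.2 ± 3.47 TPM in Ide-/- libraries and 9.16 ± 4.33 TPM in Ide+/+ libraries, and overlapped Ddit3 within each genotype. In Ide+/+ replicate 4, Ddit4 (11.8 TPM) and Chac1 (8.06 TPM) ranked above both. Ddit4, Eif2ak3, Chac1, Sesn2 and Trib3 had at most 5.13 TPM in any Ide-/- library and 11.8 TPM in any Ide+/+ library.

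Asns stood at 0.596, 0.526 and 0.361 times the TPM of Atf4 in the Ide-/- libraries, against 8.13, 1.55, 1.66, 2.45 and 5.71 times in Ide+/+ replicates 1 to 5. Atf4 thus exceeded Asns in all 3 Ide-/- libraries and in none of the 5 Ide+/+ libraries. Nupr1 was 1.97 to 4.50 times Atf4 in Ide-/- libraries and 19.8 to 186 times in Ide+/+ libraries. The ratios of Chac1 to Atf4 (0.031 to 0.086 in Ide-/- libraries, 0.140 to 0.361 in Ide+/+ libraries) and of Sesn2 to Atf4 (0.024 to 0.049 and 0.075 to 0.140) did not overlap either. Those of the other 5 members did. How many of all genes have a ratio to Atf4 that does not overlap was not computed. In CPM, 15.6% of all tested genes did not overlap, toward lower values in Ide-/- libraries. A ratio within a library also keeps any effect of the difference in acinar share. For Ddit3 the ratio was 0.433 to 0.668 in Ide-/- libraries and 0.352 to 0.679 in Ide+/+ libraries, lowest in Ide+/+ replicate 4. Ppp1r15a, called lower in CPM, overlapped here, with 0.344 to 0.428 times Atf4 in Ide-/- libraries and 0.349 to 0.508 times in Ide+/+ libraries. Counts and TPM, which is corrected for length, differed for this gene. Ide-/- replicate 3 had 101 counts of Ppp1r15a beside 481 of Atf4, but 11.2 TPM beside 28.6. Relative to the median of all genes Ppp1r15a stood at −0.10 on log2(TPM + 0.1), beside −0.74 with TMM. The cause was not tested.

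**Figure D3:**
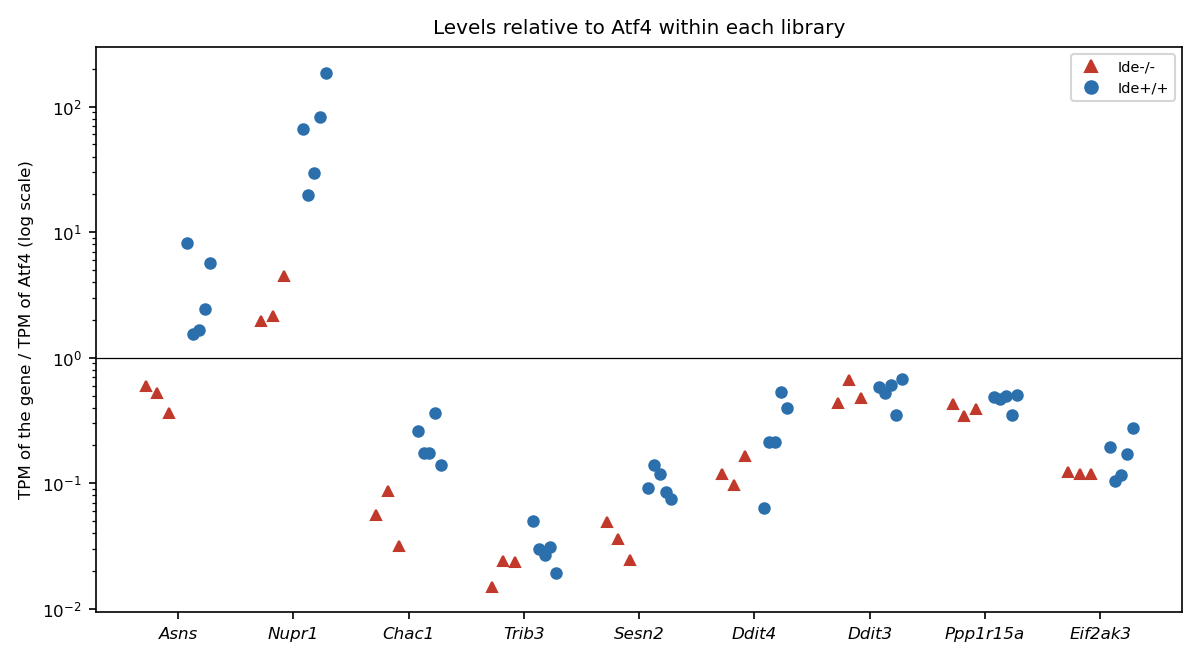
TPM of each other member divided by the TPM of Atf4 in the same library (log axis; triangles Ide-/-, circles Ide+/+, replicates in order from left to right, line at 1). Asns lies below Atf4 in every Ide-/- library and above it in every Ide+/+ library, while Ddit3 lies between 0.352 and 0.679 times Atf4 and its genotypes overlap.

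Within Ide+/+, the acinar share separated the 5 libraries into replicates 2 and 3 (23.6% and 23.9%) and replicates 5, 4 and 1 (37.0%, 37.6% and 41.2%). In that order from low to high share, Asns had 79.6, 77.8, 232, 156 and 363 CPM, Nupr1 388, 507, 2778, 2026 and 1086 CPM, and Eif2ak3 11.0, 10.9, 24.6, 22.8 and 19.6 CPM. With all Amy2 amylase genes added to the markers the shares were 1.09% to 2.64% in Ide-/- libraries and 41.1%, 41.6%, 70.1%, 64.9% and 76.7% in the Ide+/+ libraries in that order. Replicates 5 and 4 thus changed places, while replicates 2 and 3 were again the lowest within Ide+/+. For Asns, Nupr1 and Eif2ak3 the 2 libraries with the lowest acinar share were also the lowest in the gene. That order held for 33 of the 35 acinar markers and for 20.6% of all tested genes, and replicates 2 and 3 resemble each other in most genes. Eif2ak3 in the Ide-/- libraries, at 12.6 to 13.7 CPM and acinar shares of at most 1.50%, was above its level in Ide+/+ replicates 2 and 3.

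Sesn2 ran the other way, with 13.2, 10.6, 5.47, 10.0 and 7.42 CPM in the same order, and Ppp1r15a had 27.0, 28.8, 20.6, 25.1 and 25.9 CPM. For these 2 members the libraries with the lowest acinar share were the highest in the gene, an order that 21.6% of all tested genes had. The Ide-/- libraries, with the least acinar RNA, were the lowest in both genes. Chac1 (7.36, 6.93, 4.61, 19.2 and 9.52 CPM), Ddit4 (9.80, 9.14, 14.1, 30.3 and 2.51 CPM) and Trib3 (1.55, 1.35, 0.536, 2.06 and 1.70 CPM) followed neither order, and all 3 peaked in Ide+/+ replicate 4. Atf4 also peaked there (45.3, 42.6, 35.2, 56.7 and 38.9 CPM), where Ddit3 was at its lowest (11.1, 12.0, 11.3, 8.83 and 9.92 CPM).

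With 5 libraries no correlation was computed within Ide+/+. A fit across all 8 libraries with the acinar share as a second term left none of the 10 members called. It gave a log2 fold change of 0.76 (SE 0.61) for Asns and −0.07 (SE 1.17) for Nupr1, but −2.67 (SE 0.65) for Sesn2 and −1.18 (SE 0.59) for Ppp1r15a. The genotypes do not overlap in acinar share, so genotype and acinar share cannot be told apart in this fit, which called 11 genes in all. Duct markers (9 of 12 lower) and macrophage markers (13 of 15 tested lower) also differed with genotype. Transcripts of the mitochondrial genome, whose share is a sign of RNA quality, took 9.81%, 15.1% and 28.2% of counts in Ide-/- replicates 1 to 3 and 0.512%, 9.43%, 9.28%, 4.92% and 7.21% in Ide+/+ replicates 1 to 5 (two-sided exact permutation p = 0.0179). The groups did not overlap, and the share was highest in Ide-/- replicate 3, the library without which Chac1, Sesn2 and Ppp1r15a were not called. That library was not alone in this. Chac1 was also not called without Ide-/- replicate 1, and neither Sesn2 nor Ppp1r15a without Ide-/- replicate 2. The part of these marker and mitochondrial measures in the results was not tested.

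**Figure D4:**
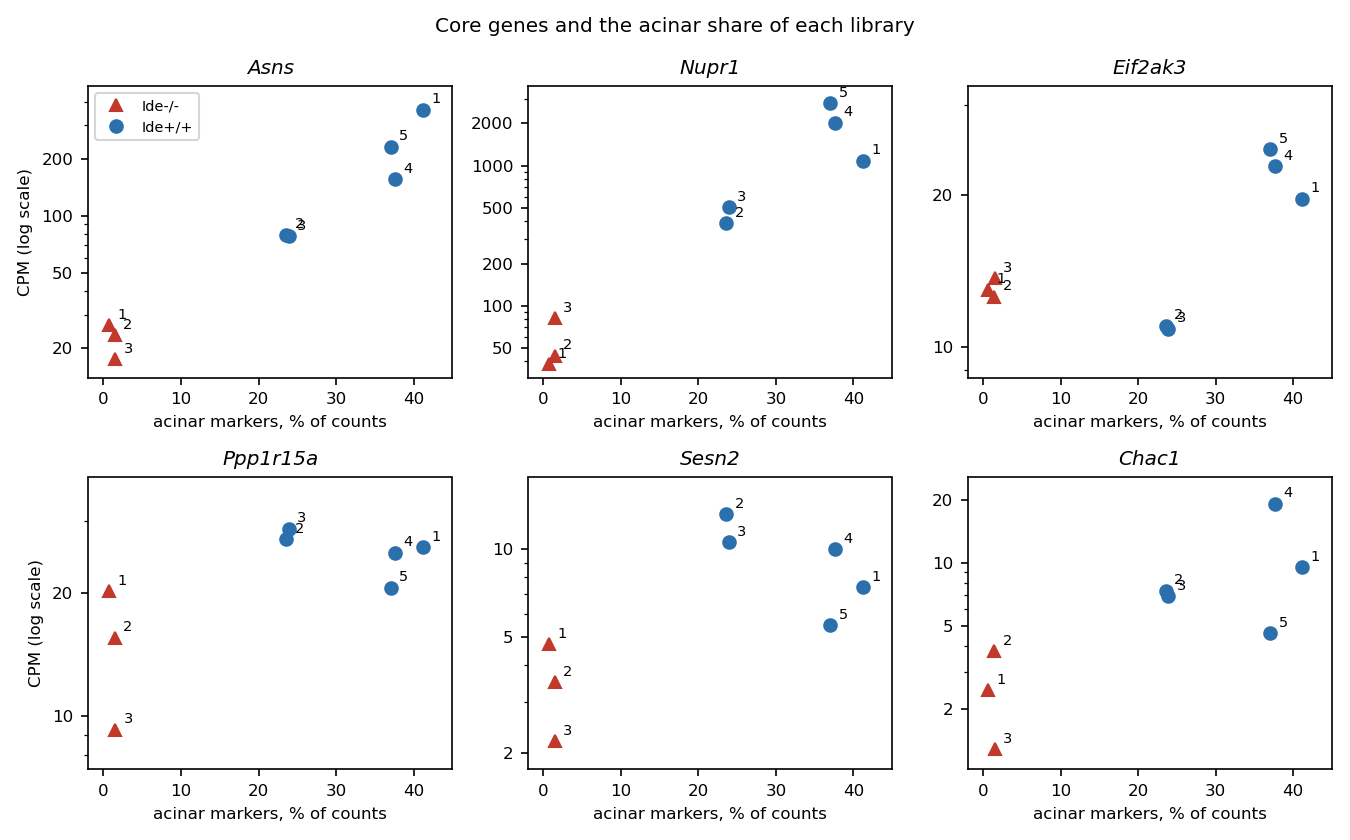
CPM of 6 core genes (log axes) against the share of counts in 35 acinar markers, one point per library with its replicate number (triangles Ide-/-, circles Ide+/+). Among the Ide+/+ libraries Asns, Nupr1 and Eif2ak3 are lowest in replicates 2 and 3 (23.6% and 23.9% acinar), whereas Ppp1r15a and Sesn2 are highest there, and Chac1 shows neither order.

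The enzymes and transporters of amino acid and folate supply that ATF4 is known to induce were the part of the wider pathway that moved most. Of 23 such genes other than Asns, 17 were lower in Ide-/- islets and none higher, beside 10.6% and 10.4% of all tested genes. Their median log2 fold change was −1.60. The list was chosen with earlier results of these data known, so the excess over all tested genes is a description and no test. At an unadjusted p under 0.05 the count was 18 lower and 0 higher, and DESeq2 and limma-voom each gave 18 lower and 0 higher. Leaving out 1 library gave 14 to 18 lower. Slc6a9, a glycine transporter gene, had 0.178 ± 0.159 CPM in Ide-/- libraries and 9.67 ± 4.62 CPM in Ide+/+ libraries (log2 fold change −5.47, SE 0.58, adjusted p = 4.3e-04). Cth, whose enzyme makes cysteine from cystathionine, had 0.508 ± 0.275 and 8.35 ± 3.99 CPM (−4.18, SE 0.53, adjusted p = 6.4e-04).

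Phgdh, the first enzyme of serine synthesis, had 6.32, 4.64 and 3.03 CPM in the Ide-/- libraries. In Ide+/+ libraries from low to high acinar share it had 40.2, 39.2, 80.1, 102 and 111 CPM (log2 fold change −3.97, SE 0.45, adjusted p = 5.0e-04). Psat1, the next enzyme, had 3.81, 3.13 and 3.03 CPM in Ide-/- libraries, against 11.6, 13.1, 23.2, 32.9 and 23.2 CPM in that order (−2.62, SE 0.35, adjusted p = 8.7e-04). Like Asns, 14 of the 23 genes (60.9%) were lowest within Ide+/+ in replicates 2 and 3, and none was highest there. Of the lists below, 9 of 17 genes around eIF2 (52.9%) and 8 of 16 genes of the IRE1 and ATF6 arms (50%) were also lowest there. Among all tested genes the share was 20.6%. With the acinar share as a second term none of the 23 was called. With plain total counts or TPM values 9 of the 23 were lower.

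Upstream, 17 genes of the other eIF2 kinases, eIF2, its exchange factor eIF2B and the phosphatase were tested. Of these 5 were lower and 1 higher, with a median of −0.58, beside 10.6% lower and 10.4% higher of all tested genes. Ppp1r15b, the constitutive partner of Ppp1r15a, had 10.0 ± 0.642 CPM in Ide-/- libraries and 19.1 ± 5.59 CPM in Ide+/+ libraries (log2 fold change −0.92, SE 0.24, adjusted p = 0.019). Eif2ak1, the haem-regulated kinase, had 7.04 ± 1.43 and 11.8 ± 2.88 CPM (−0.73, SE 0.23, adjusted p = 0.045), and Eif2b1, a subunit of eIF2B, was lower by −0.81 (SE 0.26, adjusted p = 0.047). Impact, an inhibitor of the amino acid-sensing kinase GCN2, was the gene that was higher, with 70.0 ± 13.1 and 42.6 ± 4.67 CPM (0.72, SE 0.20, adjusted p = 0.024). Of the 17, 0 were lower without any 1 of the Ide-/- libraries or Ide+/+ replicate 4, or with secretory granule scaling, and 2 without Ide+/+ replicate 5. RLE scaling and limma-voom each gave 3 lower and DESeq2 7 lower. Eif2b1 was not called with RLE or limma-voom (adjusted p = 0.0502 and 0.0501), nor Eif2ak1 with limma-voom (adjusted p = 0.053). Impact was not called without Ide-/- replicate 2 or 3 or Ide+/+ replicate 4.

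Among 16 paralogs of the members, 4 were lower and 1 higher (median −0.06), beside 10.6% and 10.4% of all tested genes. Ppp1r15b and Eif2ak1 are counted here too. Cebpa, a C/EBP factor like CHOP, had 0.363 ± 0.083 CPM in Ide-/- libraries and 1.41 ± 0.610 CPM in Ide+/+ libraries (log2 fold change −1.97, SE 0.47, adjusted p = 0.013). Chac2, the constitutive relative of Chac1, was lower by −1.17 (SE 0.34, adjusted p = 0.030). Trib1 was higher, with 18.3 ± 1.93 and 11.1 ± 1.99 CPM (0.71, SE 0.19, adjusted p = 0.022), whereas Trib3 did not pass the test. Of the 16, 0 were lower when Ide-/- replicate 1 or 2 was left out, 1 without Ide-/- replicate 3 or Ide+/+ replicate 4, and 0 with secretory granule scaling. Trib1 was not called without Ide-/- replicate 2 or 3 (adjusted p = 0.105 and 0.073) or with secretory granule scaling (adjusted p = 0.058).

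Of 13 bZIP partners and regulators of ATF4 and CHOP, 11 were tested and 2 were lower (median −0.07), beside 10.6% of all tested genes. Jun, a subunit of AP-1, had 8.91, 7.24 and 4.13 CPM in the Ide-/- libraries, against 27.3, 23.8, 22.6, 46.7 and 26.6 CPM in Ide+/+ replicates 1 to 5 (log2 fold change −2.09, SE 0.31, adjusted p = 0.0014). Nfe2l2, the gene of the antioxidant factor NRF2, had 10.8 ± 0.974 CPM in Ide-/- libraries and 22.1 ± 3.35 CPM in Ide+/+ libraries (−1.02, SE 0.19, adjusted p = 0.0039). Both stayed called in all 8 fits that left out 1 library, and 4 of the 11 were lower without Ide+/+ replicate 2 or 3. None was higher with edgeR, 1 at an unadjusted p under 0.05, none with DESeq2 and 1 with limma-voom. Atf3, named after its values were seen because ATF4 induces it, had 0.390, 0.325 and 0.825 CPM in Ide-/- libraries, against 7.72, 0.789, 0.675, 2.89 and 1.61 CPM in Ide+/+ replicates 1 to 5, and missed the threshold (adjusted p = 0.054).

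Downstream of CHOP, 2 of 13 genes were lower and none higher (median −0.28), beside 10.6% and 10.4% of all tested genes. At an unadjusted p under 0.05, 2 were higher, and none was higher by DESeq2 or limma-voom. Ero1l, an oxidase of the ER, had 12.7 ± 2.04 CPM in Ide-/- libraries and 23.1 ± 7.62 CPM in Ide+/+ libraries (log2 fold change −0.85, SE 0.26, adjusted p = 0.036). Wars, the tryptophan tRNA synthetase gene, had 16.1, 14.1 and 12.9 CPM in Ide-/- libraries, against 124, 27.9, 25.9, 37.2 and 25.5 CPM in Ide+/+ replicates 1 to 5 (−1.73, SE 0.52, adjusted p = 0.035). Neither was called without any 1 of the Ide-/- libraries or Ide+/+ replicate 4, and without Ide+/+ replicate 1 the value for Wars was −1.01 (adjusted p = 0.0027).

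The parallel IRE1 and ATF6 arms of the unfolded protein response gave no call among 16 genes with edgeR (median −0.57). At an unadjusted p under 0.05, 5 were lower and 1 higher, beside 5877 of all 16266 tested genes in either direction. DESeq2 gave 3 lower and 1 higher, and limma-voom 1 lower. Without Ide+/+ replicate 2 or 3, 3 were lower. The chaperone gene Hspa5 (BiP), the most abundant of them, had 834, 711 and 493 CPM in the Ide-/- libraries. It had 2306, 792, 851, 1507 and 1063 CPM in Ide+/+ replicates 1 to 5 (log2 fold change −0.94, SE 0.44, adjusted p = 0.142), and DESeq2 called it lower (−0.95, adjusted p = 0.046). Hsp90b1 (GRP94) had 481 ± 76.9 CPM in Ide-/- libraries and 604 ± 211 CPM in Ide+/+ libraries (adjusted p = 0.516).

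Among 16 genes of mTORC1 control next to Sesn2 and Ddit4, 1 was higher and 1 lower (median 0.22). Wdr59, a subunit of the GATOR2 complex that sestrin 2 binds, had 9.23 ± 0.917 CPM in Ide-/- libraries and 4.74 ± 0.979 CPM in Ide+/+ libraries (log2 fold change 0.95, SE 0.21, adjusted p = 0.0097). Its call was lost without Ide-/- replicate 1 (adjusted p = 0.052). Deptor, an inhibitor of mTOR, had 49.1 ± 5.41 and 107 ± 37.0 CPM (−1.12, SE 0.29, adjusted p = 0.020) and was not called without any 1 of the Ide-/- libraries. In all, 29 of the 104 tested genes of the 7 lists were lower and 3 higher, beside 10.6% and 10.4% of all tested genes. Of the 29, 17 were the amino acid and folate genes. All 7 lists were chosen with earlier results of these data known.

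**Figure D5:**
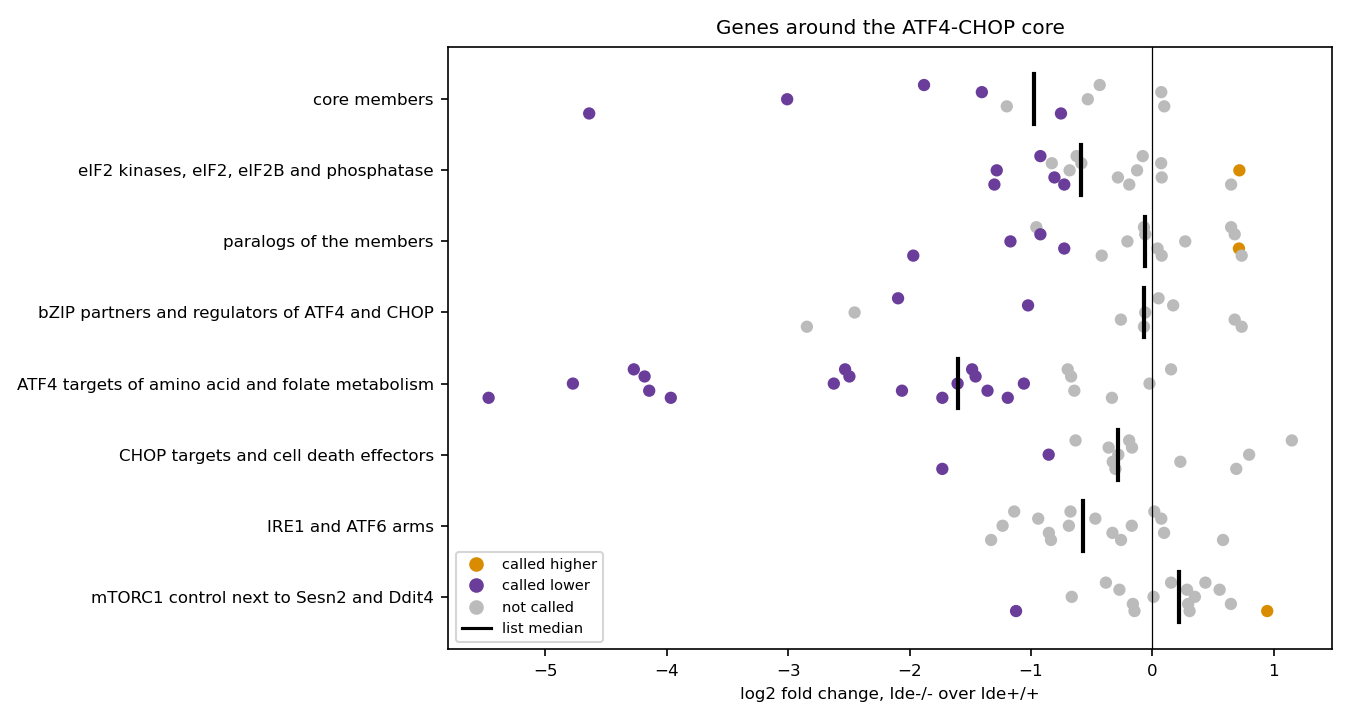
Log2 fold change (Ide-/- over Ide+/+) of each tested gene of the core and of 7 lists around it; orange points were called higher, purple points lower, grey points were not called, and the black bar is the list's median. The amino acid and folate targets of ATF4 lie furthest left, with a median of −1.60, and the IRE1 and ATF6 arms hold no called gene.

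The genes whose levels followed Atf4 most closely were sought among 8473 genes whose mean level reached 5 CPM, by Pearson's r of log2 CPM over the 8 libraries, as a description. They were Txndc11, a thioredoxin-domain protein gene (r = 0.92), Syvn1, a ubiquitin ligase gene of ER-associated degradation (r = 0.91), and Zmat3, a zinc finger protein gene (r = 0.90). For Ddit3 they were Calb1, the gene of the calcium-binding protein calbindin (r = 0.92), Rnf130, a ring finger protein gene (r = 0.89), and Snrpd1, a gene of the splicing machinery (r = 0.85). The 8 libraries share 2 genotypes and differ in depth and acinar share, and none of these 6 genes was called between genotypes.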

How the data were processed

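RNA was sequenced from 8 hand-picked islet samples. Per the submitters' processing notes, STAR 2.7.1a served for alignment to GRCm38 and RSEM 1.3.1 for counting; the sources used here give neither annotation release nor strand setting. The authors deposited, per gene, an expected count, which is an unnormalized RSEM estimate that divides shared reads among genes, and a TPM value, which is corrected for length and sums to a fixed total.

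Symbols were matched to 55227 of 55487 identifiers (GENCODE and RefSeq tables on GRCm38, 260 unmatched). Expected counts were rounded and tested in edgeR 4.0.16 by its quasi-likelihood method (R 4.3.3; robust dispersion, TMM scaling, genotype as the only term) after the default low-count filter (minimum count 10, minimum total 15), which left 16266 genes. P-values were adjusted by Benjamini-Hochberg over all of them, and the SE was taken as the log2 fold change over √F. Group values are means ± SD (n = 3 for Ide-/- and 5 for Ide+/+). The edgeR fit with TMM scaling and genotype as the only term was also tested on simulated data. The simulation gave both genotypes the same composition apart from the changed genes, unlike these libraries. The alternatives were not tested this way. DESeq2 1.42.0, limma 3.58.1 (voom, and log2(TPM + 1) and log2(TPM + 0.1)), other scalings, an acinar covariate, a replicate block and leaving out each library were alternatives. TMM factors ran from 0.405 to 2.06, and depth from 7143424 to 33371662 counts. Intervals and SEs rest on the spread between libraries.

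The members and all gene lists were chosen with earlier results of these data known. Named genes are Ide, the 10 members and, from each list, up to 4 called genes by smallest p or otherwise the 2 with the highest mean CPM; Atf3 was added. Outliers were sought in the Ide+/+ group.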

Additional observations from a re-analysis of the deposited data

Results flagged for a closer look

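Of 31 named genes and shares examined in the 5 Ide+/+ libraries, 2 had a library that stood apart by Dixon's criterion (a gap over range above 0.71), where chance alone flags about 1 in 20. Wars, the tryptophan tRNA synthetase gene, had 124 CPM in Ide+/+ replicate 1, with a gap of 0.881 of the group's range to the next library. Jun had 46.7 CPM in Ide+/+ replicate 4, with a gap of 0.806 of the range.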

How the results depend on the processing

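With TMM scaling, 1699 of all genes tested were called higher in Ide-/- islets and 1727 lower. The counts were 828 higher and 909 lower with secretory granule scaling, 8405 and 281 with plain total counts, 5925 and 415 on log2(TPM + 1), 4737 and 389 on log2(TPM + 0.1), and 1 and 10 once the acinar share was a covariate, where 2441 genes had an unadjusted p under 0.05. Leaving out 1 library gave 694 to 2141 higher and 809 to 2139 lower. Of the called genes 96.8%, 93.5% and 92.4% were higher with total counts, log2(TPM + 1) and log2(TPM + 0.1), beside 49.6% with TMM, as the median of all genes moved to 1.22, 0.50 and 0.83. Of the core members, 3 were higher and 2 lower with total counts, 1 and 2 on log2(TPM + 1), 2 lower on log2(TPM + 0.1) and 0 lower with the acinar covariate, and leaving out 1 library gave 0 higher and 2 to 6 lower. Of the 104 list genes (3 higher, 29 lower), secretory granule scaling gave 1 and 19, total counts 37 and 9, log2(TPM + 1) 20 and 10, log2(TPM + 0.1) 14 and 10, the acinar covariate 0 and 0, and leaving out 1 library 1 to 4 higher and 17 to 34 lower. Ide stayed lower under every alternative (−6.91 to −6.39 without 1 library), and so did the acinar share (−33.7 to −29.3 percentage points without 1 library, −56.8 with all Amy2 genes).

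The same replicate number does not pair samples (r of deviations 0.049, 0.009 and −0.093). A replicate block gave 465 higher and 706 lower over all genes, 0 higher and 18 lower of the list genes, and 4 lower core members, Ppp1r15a being lost (adjusted p = 0.092).

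Signs reversed as follows, and the cause was not tested beyond the shift in the median. On log2(TPM + 1), Ppp1r15a stood 0.16 above the median of all genes. With total counts the log2 fold changes were 0.98 for Eif2ak3, 0.69 for Trib3, 0.48 for Ppp1r15a, 0.073 for Ddit4, 0.42 for Ppp1r15b, 0.61 for Eif2ak1, 0.59 for Eif2b1, 0.26 for Chac2, 0.27 for Nfe2l2, 0.53 for Ero1l, 0.55 for Hspa5, 1.07 for Hsp90b1 and 0.32 for Deptor. On log2(TPM + 1) they were 0.43 for Eif2ak3, 0.13 for Trib3, 0.66 for Ppp1r15a, 0.088 for Ppp1r15b, 0.27 for Eif2ak1, 0.17 for Eif2b1 and 0.60 for Hsp90b1. On log2(TPM + 0.1) they were 0.53, 0.35, 0.73, 0.12, 0.37, 0.19 and 0.60 for the same 7 genes and 0.081 for Ddit4. With the acinar covariate they were 1.67 for Eif2ak3, −0.32 for Ddit3, 0.76 for Asns, 0.33 for Ppp1r15b, 0.20 for Eif2ak1, 0.90 for Eif2b1, 1.22 for Chac2, 1.26 for Wars, 0.49 for Ero1l, 1.33 for Hspa5, 1.20 for Hsp90b1 and 0.79 for Deptor. Without Ide-/- replicate 2 it was −0.12 for Ddit3. Depth limits Trib3 most, at 5 to 61 counts a library.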
